A study of Homo sapiens with 4 samples.

Results

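Epithelial junction and polarity genes are described here in MCF10A, an immortal human breast epithelial line that does not form tumours, carrying different forms of the transcriptional coactivator YAP. The 35 genes were taken from a list of 5 adherens junction, 12 desmosome and 10 tight junction genes and 8 genes for regulators, proteases and polarity proteins of the same epithelial programme. Each was represented by the brightest probe set that the platform annotation assigns to that gene alone. This gave 32 genes of 19775 on the array. CTNND1 (4 probe sets) and ESRP2 (1 probe set) had only probe sets annotated to several genes, and these and F11R are not analysed here. Of the 32 genes, 29 reached a mean intensity of 113.6, the median over probe sets, and are called measured, as were 12759 genes in all. PKP1, TJP3 and GRHL2 did not reach it.

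Total RNA was hybridized to Affymetrix arrays, with 1 array for each of 4 cultures. Retroviral infection had given the cultures YAP-W1W2 (mutated in both WW domains, through which YAP binds proline-rich motifs), YAP-S94A (mutated in the part that binds TEAD transcription factors), wild-type YAP (YAP-WT) or the empty pQCXIH vector. The growth medium, which was common to all cultures, held horse serum, insulin, cholera toxin, hydrocortisone and epidermal growth factor, and the cells keep their own YAP gene. The labels do not say whether a culture was a clone or a pool. With 1 array per group there is no spread between replicates, no test was made, and each fold compares 2 arrays. A gene was counted as higher or lower where it differed at least 2-fold, that is, by a log2 difference of at least 1. Intensities below 72.9 were set to that floor, and a fold with 1 side there is written as at least that fold.

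Adherens junctions join neighbouring epithelial cells through classical cadherins, whose tails bind beta-catenin or plakoglobin and, through alpha-catenin, actin. Desmosomes use their own cadherins, the desmogleins and desmocollins, which plakoglobin, plakophilins and desmoplakin tie to keratin filaments. Tight junctions seal the space between cells with claudins, occludin and the related MARVEL proteins on a scaffold of zonula occludens proteins and cingulin. The Par and Crumbs complexes place these belts near the apical surface. Junctions are also known as sites that control YAP, since cell contact restrains its entry into the nucleus.

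Across the arrays the junction genes were most often lowest in YAP-WT. The YAP-WT array held the lowest value of 13 of the 29 measured members, while it was the lowest array for 16.5% of all measured genes. The vector array was lowest for 8 of 29 members, against 39.0% of all measured genes. YAP-W1W2 was lowest for 4 members (26.3% of all measured genes), all of them desmosomal, and YAP-S94A for 4 (18.1%). The highest array was YAP-W1W2 for 5 members, YAP-S94A for 11, YAP-WT for 5 and vector for 8, against 22.4%, 30.5%, 24.5% and 22.6% of all measured genes. The classes did not share 1 pattern. Among 11 measured desmosome genes, 7 were highest in vector. Their lowest array was YAP-W1W2 for 4, YAP-S94A for 3, YAP-WT for 3 and vector for 1. Among 8 measured tight junction genes, 5 were highest in YAP-S94A and 5 were lowest in YAP-WT. The range over the 4 arrays, highest over lowest, had a median of 2.11-fold for the 29 members and 1.73-fold for all measured genes. It had a median of 1.65-fold for adherens junction, 1.93-fold for desmosome, 2.45-fold for tight junction and 2.44-fold for regulator, protease and polarity genes.

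**Figure D1:**
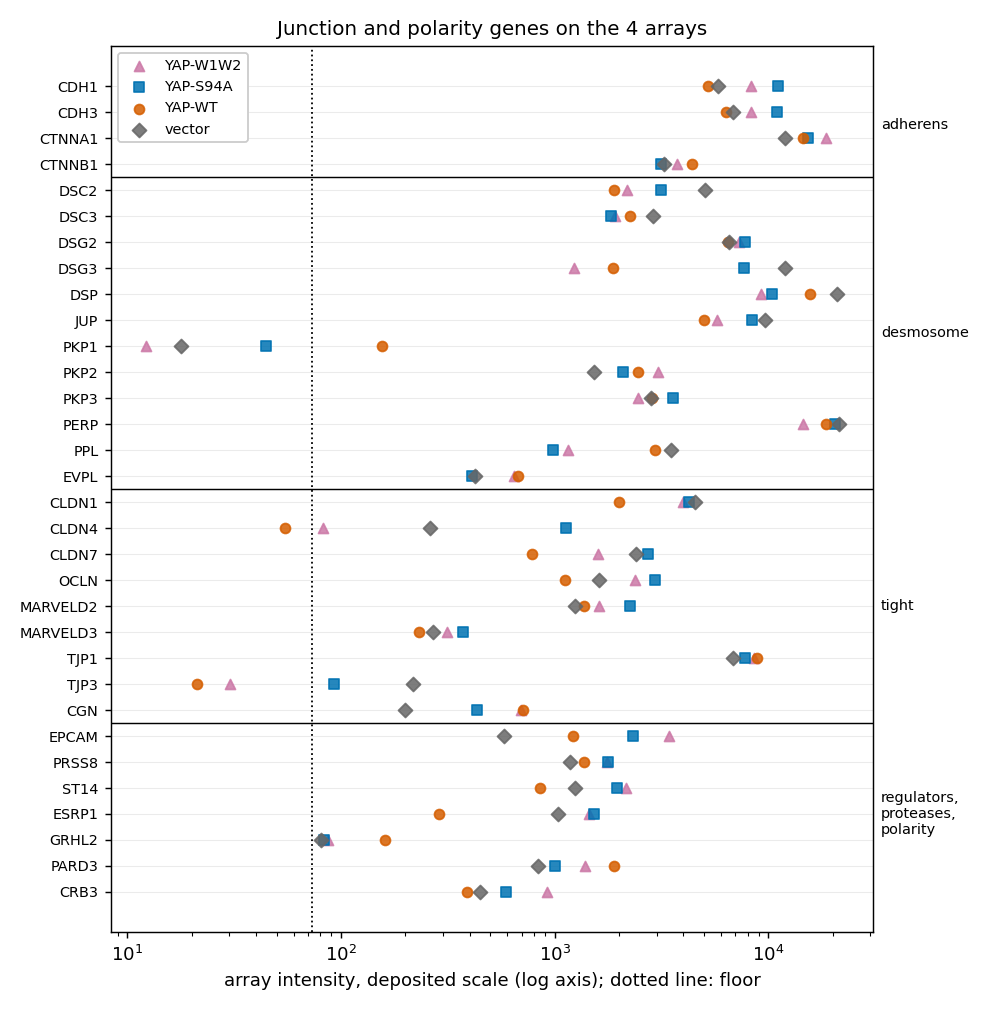
Array intensity of the 32 genes (rows, by class) on a log axis, with 1 symbol per array and the floor as a dotted line. Most claudin and occludin points for YAP-WT lie left of those for YAP-S94A, and for most desmosome genes the vector point lies rightmost; DSG3, CLDN4, EPCAM and ESRP1 span at least 5.31-fold over the arrays.

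Against vector, 3 of 29 measured members (10.3%) were at least 2-fold higher and 5 (17.2%) lower in YAP-W1W2, where 11.4% of all measured genes were higher and 8.4% lower. In YAP-S94A 3 members (10.3%) were higher and 2 (6.9%) lower, against 10.3% and 6.53% of all measured genes. In YAP-WT 3 members (10.3%) were higher and 6 (20.7%) lower, against 9.11% and 4.95%. After each array was centred on its median gene, 2 members were higher and 7 lower in YAP-WT. The share of members higher than vector was therefore near the background on every YAP array, and the share lower was above it in YAP-WT and YAP-W1W2. The median measured gene stood above vector by a log2 value of 0.10 in YAP-W1W2, 0.14 in YAP-S94A and 0.14 in YAP-WT, so class medians are also given relative to it.

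The direct comparisons of the YAP forms do not use the vector array. In YAP-W1W2 6 of 29 members (20.7%) were at least 2-fold higher than in YAP-WT, against 3.91% of all measured genes, and 1 (3.45%) was lower, against 5.59%. In YAP-S94A 8 members (27.6%) were higher than in YAP-WT, against 5.06% of all measured genes, and 1 (3.45%) was lower, against 6.27%. Between YAP-W1W2 and YAP-S94A 0 members were higher, against 4.98%, and 2 (6.9%) lower, against 4.45%. These comparisons share arrays with each other and with those against vector, so their counts are not independent.

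As checks of the whole series, KRT5 read 30481.6 to 33856.2 and KRT14 32532.6 to 39724.1, high on all arrays as in basal epithelial cells. The simple-epithelial keratin KRT18 read 34605.0 in YAP-W1W2, 18123.4 in YAP-S94A, 16989.6 in YAP-WT and 5608.9 in vector. KRT8 read 16277.0, 7012.2, 8931.8 and 3844.7 on the same arrays. Another keratin, KRT19, read at most 76.1 and was not measured. EGFR read 7258.8 in YAP-W1W2, 6673.0 in YAP-S94A, 13200.4 in YAP-WT and 9222.0 in vector. Of 3 endothelial markers, CDH5 and VWF were below the floor on every array and PECAM1 read 472.6 to 680.9. Of the leukocyte markers, PTPRC read at most 74.6, CD3E was above the floor only in YAP-WT, at 256.1, and CD14 only in YAP-S94A, at 143.9, and vector, at 311.9. The mesenchymal marker FN1 read 16527.2 in YAP-W1W2, 3482.9 in YAP-S94A, 18858.9 in YAP-WT and 7419.2 in vector, and VIM read 9831.5, 13882.6, 20225.4 and 10191.2 on the same arrays. The brightest YAP1 probe set read 4657.0 in YAP-W1W2, 4208.4 in YAP-S94A, 3461.5 in YAP-WT and 4085.5 in vector. Another read 3953.5, 4284.6, 3908.4 and 3567.7 on the same arrays, and the dimmest 1471.9, 1552.2, 871.8 and 1024.8. The YAP1 probe sets thus differed on whether YAP-WT stood above vector, and whether they lie within the constructs is not known. The 3′ to 5′ ratios of the actin and GAPDH controls lay between 0.961 and 1.16. The spiked hybridization control bioB averaged 938.8 in YAP-W1W2, 1275.7 in YAP-S94A, 1632.2 in YAP-WT and 2221.6 in vector. The part of these markers and controls in the results was not tested.

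CDH1 and CDH3, the measured cadherins among the adherens junction members, were highest in YAP-S94A. E-cadherin (CDH1), the main epithelial cadherin, read 8295.0 in YAP-W1W2, 11039.0 in YAP-S94A, 5238.7 in YAP-WT and 5828.9 in vector. P-cadherin (CDH3), the cadherin of basal epithelial cells, read 8303.6 in YAP-W1W2, 10996.7 in YAP-S94A, 6296.2 in YAP-WT and 6830.4 in vector. By these probe sets both genes had the same order of arrays, with YAP-WT lowest and vector next. CDH1 was 2.11-fold higher in YAP-S94A than in YAP-WT, and CDH3 1.75-fold. A second CDH1 probe set read 807.6 in YAP-W1W2, 1664.8 in YAP-S94A, 813.2 in YAP-WT and 735.0 in vector. It too put YAP-S94A highest, 2.05-fold above YAP-WT and 2.27-fold above vector, but with vector lowest. By the brightest CDH1 probe set the log2 differences from vector were 0.51 in YAP-W1W2, 0.92 in YAP-S94A and −0.15 in YAP-WT, all under 2-fold, so whether YAP-S94A passes 2-fold over vector depends on the probe set. CDH3 and CDH1 lie next to each other on chromosome 16, with 0 protein-coding genes between them in the RefSeq annotation.

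The catenins did not follow the cadherins. Alpha-catenin (CTNNA1), which links the complex to actin, read 18625.7 in YAP-W1W2, 15377.2 in YAP-S94A, 14465.9 in YAP-WT and 11919.8 in vector. Beta-catenin (CTNNB1), which binds the cadherin tail and is also a Wnt signal carrier, read 3752.6 in YAP-W1W2, 3125.8 in YAP-S94A, 4380.6 in YAP-WT and 3238.5 in vector. By these probe sets neither reached 2-fold in any comparison. The 2 dimmer measured probe sets of CTNNB1 were instead highest in vector, at 285.3 and 237.5, and lowest in YAP-W1W2, at 96.8 and 132.8. The median log2 difference of the 4 adherens junction genes from vector was 0.40 in YAP-W1W2, 0.53 in YAP-S94A and 0.08 in YAP-WT, or 0.29, 0.38 and −0.06 relative to the median gene. On every YAP array 0 of the 4 were at least 2-fold from vector. Of all measured genes, 11.4%, 10.3% and 9.11% were higher and 8.4%, 6.53% and 4.95% lower in YAP-W1W2, YAP-S94A and YAP-WT.

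Other adherens junction genes were drawn from a list of 16, of which 11 were measured. Against vector, 4 (36.4%) were at least 2-fold higher in YAP-W1W2, 1 (9.09%) in YAP-S94A and 5 (45.5%) in YAP-WT, where the shares of all measured genes were 11.4%, 10.3% and 9.11%. The YAP-S94A count was near that background. Lower were 0, 0 and 1 (9.09%), against 8.4%, 6.53% and 4.95% of all measured genes. N-cadherin (CDH2), a cadherin of mesenchymal and neural cells, read 2028.7 in YAP-W1W2, 726.2 in YAP-S94A, 1593.0 in YAP-WT and 575.3 in vector. It was 3.53-fold higher than vector in YAP-W1W2 and 2.77-fold in YAP-WT, and 2.19-fold lower in YAP-S94A than in YAP-WT. The order of arrays thus differed from that of CDH1 and CDH3, with YAP-S94A near vector. Its second measured probe set had the same split, at 512.9, 228.1, 477.7 and 245.9 in YAP-W1W2, YAP-S94A, YAP-WT and vector, with YAP-WT 1.94-fold above vector. The nectin NECTIN2, an immunoglobulin-like adhesion protein of these junctions, was 2.67-fold higher than vector in YAP-W1W2 and 2.55-fold in YAP-WT. The catenin-family gene ARVCF was at least 4.01-fold higher in YAP-W1W2, at least 4.22-fold in YAP-S94A and at least 3.23-fold in YAP-WT, since vector read 62.4. These ARVCF values rest on its only measured probe set, which read at most 307.6. A dimmer one, below the filter, read 135.2 in YAP-W1W2, 62.8 in YAP-S94A, 74.3 in YAP-WT and 33.2 in vector. PLEKHA7, an adherens junction adaptor, was 2.96-fold lower in YAP-W1W2 than in YAP-WT by its brightest probe set and 1.53-fold by the other measured one.

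**Figure D2:**
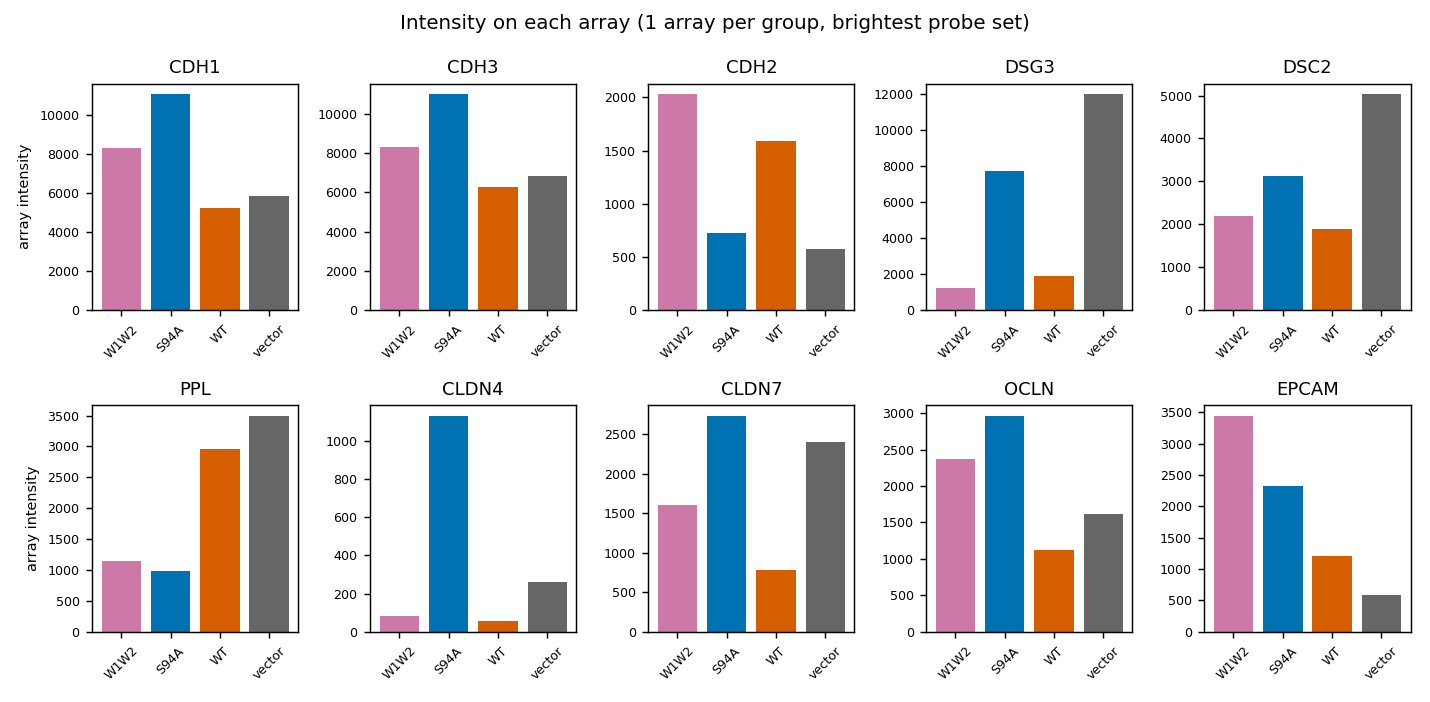
Intensity of 10 genes on each array (bars from 0, 1 array per group, brightest probe set), each panel with its own axis. CDH1, CDH3 and CLDN4 are highest in YAP-S94A; CDH2 is high in YAP-W1W2 and YAP-WT; DSG3 is low in both of these; PPL is low in both mutants; EPCAM is lowest in vector.

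The measured desmosome genes that differed 2-fold from vector were all lower than it. Of 11 measured members 4 (36.4%) were at least 2-fold lower in YAP-W1W2, 2 (18.2%) in YAP-S94A and 2 (18.2%) in YAP-WT, against 8.4%, 6.53% and 4.95% of all measured genes. On each YAP array 0 were higher, against 11.4%, 10.3% and 9.11%. The median log2 difference from vector was −0.59 in YAP-W1W2, −0.20 in YAP-S94A and −0.24 in YAP-WT, or −0.70, −0.34 and −0.38 relative to the median gene. In YAP-W1W2 the median was −1.19 when probe sets with the _s_at or _x_at suffix, which can match several transcripts, were left out. That setting covers fewer genes, since JUP, PKP2 and PKP3 drop out. It also takes the dimmest measured PERP probe set, at a log2 value of −2.29 against −0.55 for the brightest. At least 2-fold lower than vector were DSC2, DSG3, DSP and PPL in YAP-W1W2. In YAP-S94A they were DSP and PPL, and in YAP-WT DSC2 and DSG3.

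Desmoglein 3 (DSG3), the desmosomal cadherin of basal stratified epithelium, varied most in this class. It read 1231.3 in YAP-W1W2, 7711.7 in YAP-S94A, 1863.2 in YAP-WT and 11951.7 in vector. It was low in YAP-W1W2 and YAP-WT and much nearer to vector in YAP-S94A. The gene was 9.71-fold lower than vector in YAP-W1W2, 1.55-fold in YAP-S94A and 6.41-fold in YAP-WT. YAP-S94A was 4.14-fold above YAP-WT, and YAP-W1W2 was 6.26-fold below YAP-S94A. A second probe set gave 7.13-fold, 1.49-fold and 4.45-fold lower than vector in YAP-W1W2, YAP-S94A and YAP-WT. Desmoglein 2 (DSG2), the widely expressed desmoglein encoded next to DSG3 on chromosome 18, differed little. It read 7283.3 in YAP-W1W2, 7738.5 in YAP-S94A, 6498.5 in YAP-WT and 6558.2 in vector, a range of 1.19-fold.

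The desmocollins, the partner cadherins of the desmogleins, were lower than vector on every YAP array. Desmocollin 2 (DSC2) read 2184.9 in YAP-W1W2, 3130.9 in YAP-S94A, 1898.6 in YAP-WT and 5027.8 in vector. Desmocollin 3 (DSC3) read 1918.2 in YAP-W1W2, 1825.5 in YAP-S94A, 2252.0 in YAP-WT and 2893.9 in vector. Of the pair only DSC2 passed 2-fold, and YAP-S94A was again the YAP array nearest to vector for it. DSC2 was 2.30-fold lower than vector in YAP-W1W2, 1.61-fold in YAP-S94A and 2.65-fold in YAP-WT. Its 4 measured probe sets all had this direction, from 2.30-fold to 6.71-fold lower in YAP-W1W2, 1.61-fold to 2.63-fold in YAP-S94A and 2.65-fold to 5.15-fold in YAP-WT. The size of the DSC2 difference thus depended on the probe set. DSC3 and DSC2 also neighbour each other, in the same chromosome 18 cluster as DSG2 and DSG3, with DSC1, DSG1 and DSG4 between DSC2 and DSG3. None of those 3 intervening genes was measured: DSC1 was below the floor on all arrays, DSG1 read at most 80.7, and DSG4 read 198.3 in vector with all YAP arrays below the floor.

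The cytoplasmic plaque gave 2 other patterns. Desmoplakin (DSP), which anchors keratin filaments, read 9273.0 in YAP-W1W2, 10349.1 in YAP-S94A, 15650.6 in YAP-WT and 20830.6 in vector. Periplakin (PPL), a plakin of desmosomes and the cornified envelope, read 1151.1 in YAP-W1W2, 979.4 in YAP-S94A, 2954.8 in YAP-WT and 3490.4 in vector. Both were lowest in the mutants, and PPL in YAP-WT stood close to vector. PPL was 3.03-fold lower than vector in YAP-W1W2 and 3.56-fold in YAP-S94A, and 2.57-fold and 3.02-fold lower than YAP-WT. By the brightest probe sets, PPL, which has only 1, was the sole measured member at least 2-fold lower in either mutant than in YAP-WT. Dimmer measured probe sets also passed this limit for PARD3, by 3.03-fold in YAP-S94A and 2.12-fold in YAP-W1W2. One of CTNNB1 did so in YAP-W1W2, by 2.15-fold. DSP was 2.25-fold lower than vector in YAP-W1W2 and 2.01-fold in YAP-S94A, the second just past the 2-fold limit. The related envoplakin gene EVPL did not follow PPL, at 641.7 in YAP-W1W2, 411.5 in YAP-S94A, 672.0 in YAP-WT and 423.8 in vector. Dystonin (DST), a plakin of the basal adhesion sites called hemidesmosomes and the only measured gene of 6 listed other desmosome genes, was 2.92-fold lower than vector in YAP-W1W2 and 2.50-fold in YAP-S94A by its brightest probe set. Among its 7 measured probe sets the size ran from 1.24-fold to 8.14-fold lower in YAP-W1W2 and from 1.49-fold to 4.27-fold in YAP-S94A, so these calls depend on the probe set.

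Plakoglobin (JUP), which serves both desmosomes and adherens junctions, read 5725.6 in YAP-W1W2, 8399.3 in YAP-S94A, 4990.3 in YAP-WT and 9637.5 in vector. It was lower in YAP-W1W2 and YAP-WT than on the other arrays, as were DSG3 and DSC2, but by less than 2-fold, with a log2 difference from vector of −0.95 in YAP-WT. Plakophilin 2 (PKP2), a plaque protein of simple epithelia, had the opposite direction. It read 3035.8 in YAP-W1W2, 2076.0 in YAP-S94A, 2445.1 in YAP-WT and 1528.0 in vector, with a largest difference of 1.99-fold, and a dimmer probe set was 2.78-fold higher than vector in YAP-W1W2. Plakophilin 3 (PKP3) read 2450.6 to 3576.1 over the arrays, a range of 1.46-fold. Plakophilin 1 (PKP1), known from suprabasal layers of stratified epithelium, was above the floor only in YAP-WT, at 155.1, and was not measured.

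PERP, a tetraspan membrane protein of desmosomes and a p53 target, was the member whose reading turned most on the probe set. The brightest one read 14562.5 in YAP-W1W2, 20511.6 in YAP-S94A, 18556.6 in YAP-WT and 21329.1 in vector, a range of 1.46-fold. Another bright probe set read 8057.0 in YAP-W1W2, 17042.0 in YAP-S94A, 10213.6 in YAP-WT and 21340.2 in vector. There PERP was 2.65-fold lower than vector in YAP-W1W2 and 2.09-fold in YAP-WT. The dimmest of its 3 measured probe sets was 4.90-fold lower in YAP-W1W2, 2.88-fold in YAP-S94A and 5.07-fold in YAP-WT. All 3 put vector highest, and they disagree on whether the 2-fold limit is passed.

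**Figure D3:**
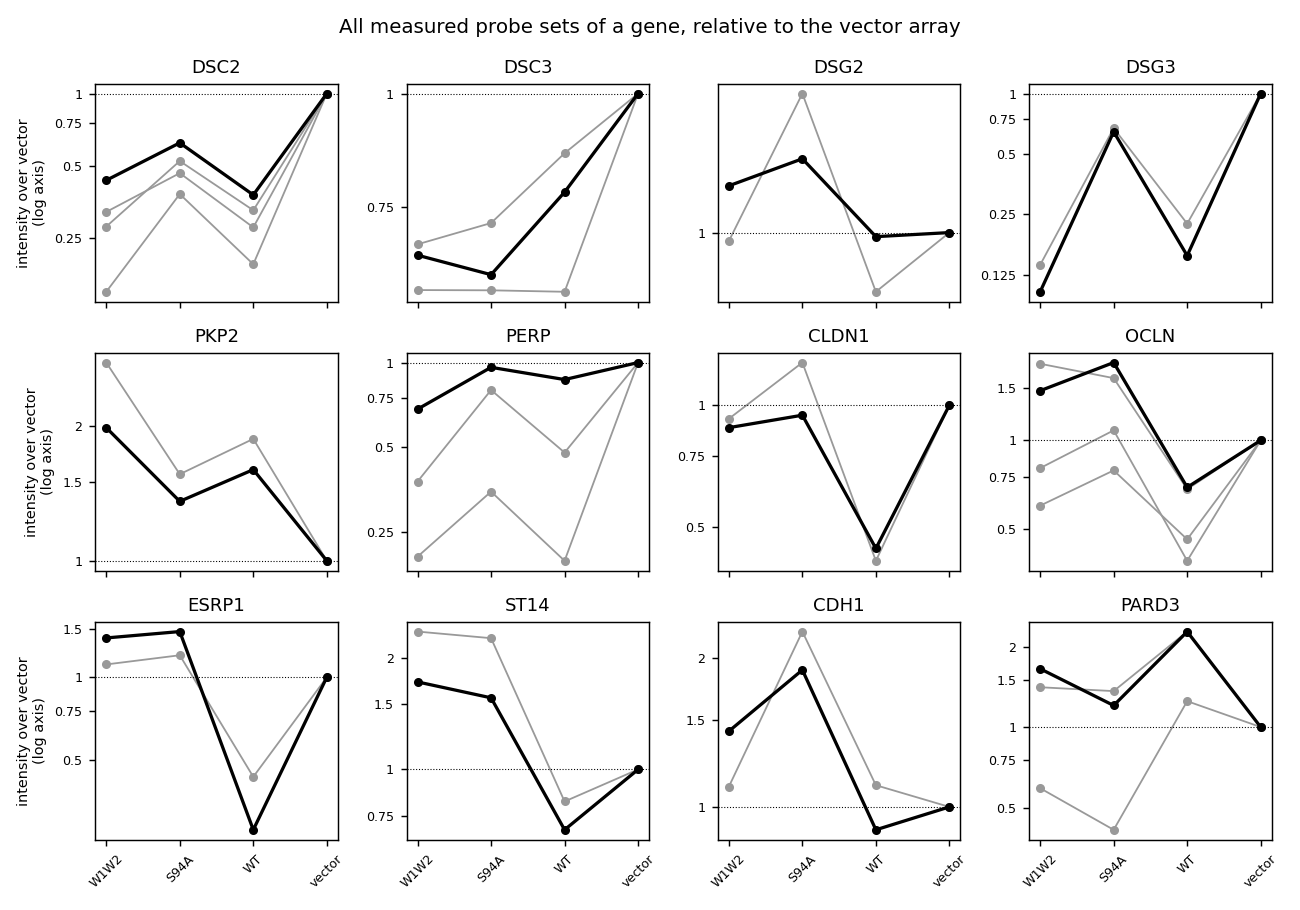
All measured probe sets of 12 genes, each divided by its own vector intensity (log axis); the black line is the brightest probe set, used in the text, grey lines are the others, and lines only join the 4 arrays of a probe set. All DSC2 and DSG3 lines lie below vector on every YAP array and all CLDN1 and ESRP1 lines are lowest in YAP-WT, while those of PERP differ in size and 1 of PARD3 stands below vector in both mutants.

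The tight junction members differed most between YAP-S94A and YAP-WT. In YAP-S94A 4 of 8 measured members passed 2-fold above YAP-WT and 0 below, against 5.06% and 6.27% of all measured genes. The median log2 difference of the 8 members was 0.91, against 0.01 for all measured genes. In YAP-W1W2 2 were higher than in YAP-WT and 0 lower, against 3.91% and 5.59% of all measured genes. The median of the 8 members there was 0.34, against −0.04. Against vector, the median was 0.27 in YAP-W1W2, 0.67 in YAP-S94A and −0.37 in YAP-WT, or 0.17, 0.52 and −0.51 relative to the median gene. At least 2-fold above vector were 1 of 8 (12.5%) in YAP-W1W2, 2 (25%) in YAP-S94A and 1 (12.5%) in YAP-WT, and below it 1 (12.5%), 0 and 3 (37.5%). The shares of all measured genes were 11.4%, 10.3% and 9.11% above and 8.4%, 6.53% and 4.95% below.

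Claudin 4 (CLDN4), a claudin of luminal and simple epithelia, read 82.4 in YAP-W1W2, 1130.3 in YAP-S94A, 54.5 in YAP-WT and 261.2 in vector. YAP-S94A was above vector while the other YAP arrays were at or near the floor. CLDN4 was 4.33-fold higher than vector in YAP-S94A, 3.17-fold lower in YAP-W1W2 and at least 3.58-fold lower in YAP-WT. In YAP-S94A it was at least 15.5-fold above YAP-WT, and YAP-W1W2 was 13.7-fold below YAP-S94A. Its other probe set was below the floor on all arrays, so the values rest on 1 probe set. Claudin 7 (CLDN7), which also marks the lateral membrane, read 1600.3 in YAP-W1W2, 2729.2 in YAP-S94A, 786.4 in YAP-WT and 2398.6 in vector. It was 3.05-fold lower than vector in YAP-WT, 2.04-fold higher in YAP-W1W2 than in YAP-WT, and 3.47-fold higher in YAP-S94A than in YAP-WT. Claudin 1 (CLDN1), a barrier claudin of keratinocytes, read 3972.3 in YAP-W1W2, 4262.6 in YAP-S94A, 2003.3 in YAP-WT and 4512.3 in vector. Here YAP-WT alone stood apart, 2.25-fold below vector, and by the second probe set 2.42-fold below it.

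Occludin and its relatives, the MARVEL proteins, had YAP-S94A as the highest array by their brightest probe sets. Occludin (OCLN) read 2374.4 in YAP-W1W2, 2957.5 in YAP-S94A, 1116.9 in YAP-WT and 1611.4 in vector. It was 2.13-fold higher in YAP-W1W2 than in YAP-WT and 2.65-fold higher in YAP-S94A than in YAP-WT. All 4 of its measured probe sets put YAP-WT lowest, but 2 of them put both mutants above vector, 1 put both below it, and 1 put YAP-S94A above and YAP-W1W2 below. Tricellulin (MARVELD2), which seals corners where 3 cells meet, read 1612.0 in YAP-W1W2, 2257.0 in YAP-S94A, 1366.2 in YAP-WT and 1242.8 in vector. MARVELD3 read 314.9 in YAP-W1W2, 373.8 in YAP-S94A, 232.3 in YAP-WT and 269.5 in vector. Neither reached 2-fold in any comparison, and a dimmer MARVELD2 probe set read nearly alike in YAP-S94A and vector, at 205.8 and 207.0. MARVELD2 and OCLN are neighbours on chromosome 5, with 0 protein-coding genes between them.

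The scaffold genes of the tight junction took other directions. ZO-1 (TJP1), the scaffold that binds claudins and actin, read 8518.5 in YAP-W1W2, 7755.3 in YAP-S94A, 8873.7 in YAP-WT and 6837.9 in vector, a range of 1.30-fold. Cingulin (CGN), a cytoplasmic protein that binds the scaffold and actomyosin, read 693.8 in YAP-W1W2, 431.4 in YAP-S94A, 706.8 in YAP-WT and 198.4 in vector. CGN was higher than vector on each YAP array, 3.50-fold in YAP-W1W2, 2.17-fold in YAP-S94A and 3.56-fold in YAP-WT, and its second probe set, below the floor in vector, had the same direction. With median centring the CGN value in YAP-S94A was 0.97 (log2), under the limit. ZO-3 (TJP3), not measured by the filter, was above the floor in vector, at 217.9, and in YAP-S94A, at 92.9, and below it in YAP-W1W2 and YAP-WT.

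The list of 28 other tight junction genes held 14 measured ones. Against vector, 4 (28.6%) were at least 2-fold higher in YAP-W1W2, 3 (21.4%) in YAP-S94A and 3 (21.4%) in YAP-WT, against 11.4%, 10.3% and 9.11% of all measured genes. On each array 0 were lower, against 8.4%, 6.53% and 4.95%. In YAP-S94A 1 (7.14%) was at least 2-fold higher than in YAP-WT and 0 lower, against 5.06% and 6.27%. The median log2 difference there was 0.008, against 0.013 for all measured genes and 0.91 for the 8 measured tight junction members. CXADR, the coxsackie and adenovirus receptor, an immunoglobulin-like junction protein, read 4312.4 in YAP-W1W2, 902.0 in YAP-S94A, 1402.6 in YAP-WT and 615.5 in vector. It was 7.01-fold higher than vector in YAP-W1W2 and 2.28-fold in YAP-WT, and 3.07-fold higher in YAP-W1W2 than in YAP-WT. YAP-W1W2 was highest in all 4 measured CXADR probe sets, but the other 3 gave smaller differences, 2.89-fold to 5.77-fold over vector and 1.11-fold to 2.01-fold over YAP-WT, with 2 of the 3 under 2-fold over YAP-WT. The lipoprotein receptor LSR, which recruits tricellulin to cell corners, had the order of arrays of OCLN. It read 3311.4 in YAP-W1W2, 4206.1 in YAP-S94A, 1526.1 in YAP-WT and 2049.5 in vector. Claudins 2 and 6 (CLDN2, CLDN6) were dim, at most 327.5 and 194.0, and were lowest in vector.

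**Figure D4:**
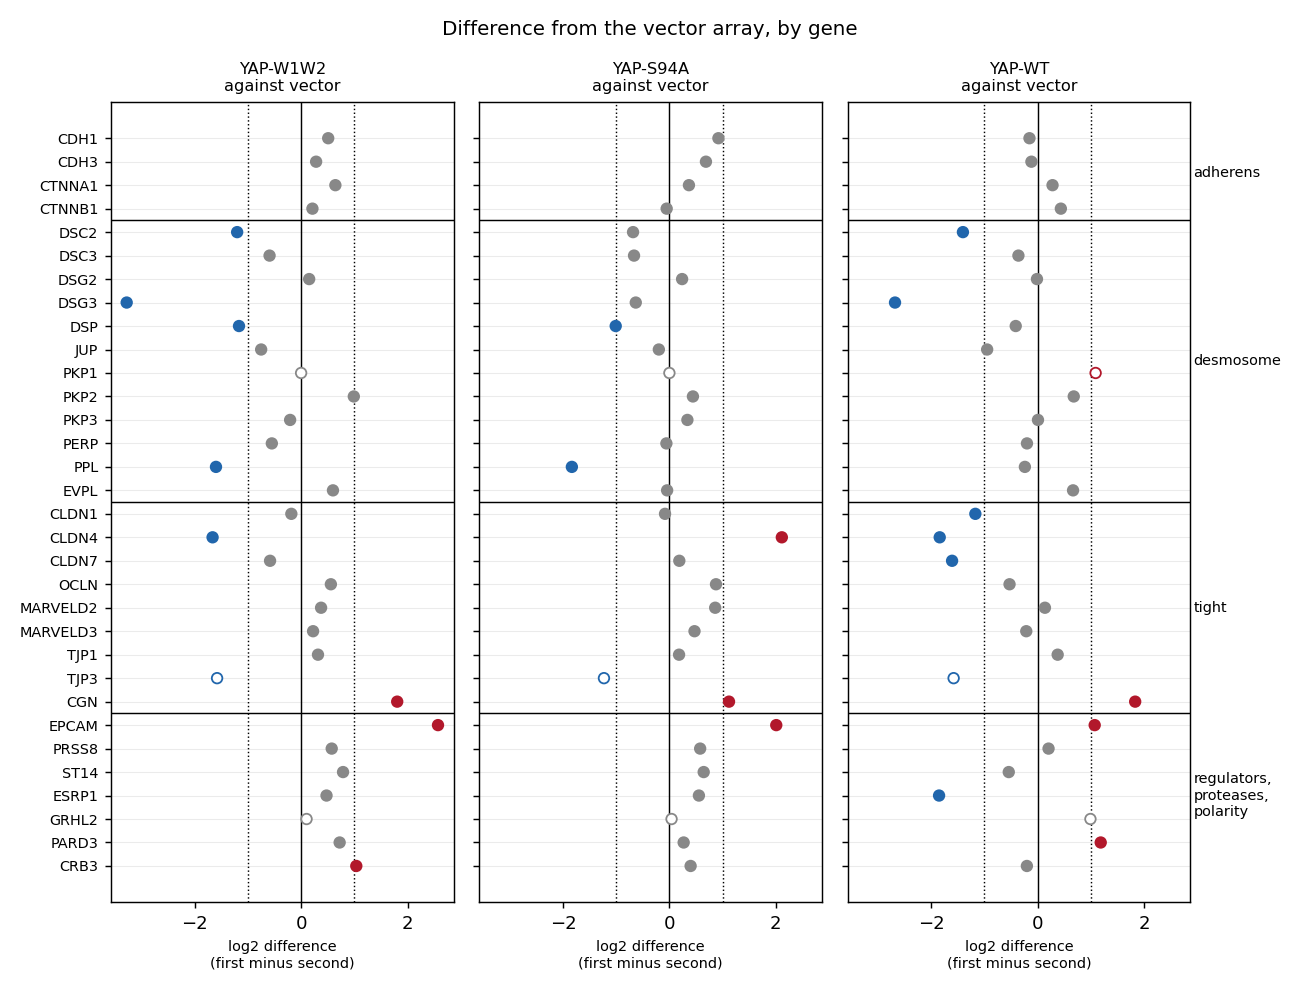
Log2 difference of each gene from vector (columns: YAP-W1W2, YAP-S94A, YAP-WT), red at least 2-fold higher, blue at least 2-fold lower, open circles not measured; dotted lines mark 2-fold. DSG3 is blue in YAP-W1W2 and YAP-WT, PPL in both mutants and CLDN1, CLDN7 and ESRP1 in YAP-WT alone, while CGN and EPCAM are red in all 3 columns.

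Promoters are printed for CLDN7, OCLN and CLDN4, 3 of the 4 tight junction genes whose YAP-S94A value exceeded 2 times that in YAP-WT. They show how far these genes differ in E-boxes, the motif that ZEB and SNAI repressors of epithelial genes are known to bind. CLDN1, the other such gene, is not printed and had no E-box in the windows searched. The windows run from 250 bases before to 50 bases after an annotated start, from RefSeq on GRCh38.p14, with each E-box (CACCTG, or CAGGTG on the other strand) in capitals. Of genes with several starts the window with most matches is shown.
CLDN7 (chr17:7262429-7262728, minus strand): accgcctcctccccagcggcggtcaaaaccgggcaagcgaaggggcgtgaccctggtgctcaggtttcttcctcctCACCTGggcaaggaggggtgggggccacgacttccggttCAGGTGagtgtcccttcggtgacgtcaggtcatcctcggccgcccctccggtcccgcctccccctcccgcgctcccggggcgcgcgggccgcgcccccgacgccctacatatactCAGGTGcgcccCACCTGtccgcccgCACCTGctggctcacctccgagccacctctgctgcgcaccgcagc
OCLN (chr5:69492540-69492839, plus strand): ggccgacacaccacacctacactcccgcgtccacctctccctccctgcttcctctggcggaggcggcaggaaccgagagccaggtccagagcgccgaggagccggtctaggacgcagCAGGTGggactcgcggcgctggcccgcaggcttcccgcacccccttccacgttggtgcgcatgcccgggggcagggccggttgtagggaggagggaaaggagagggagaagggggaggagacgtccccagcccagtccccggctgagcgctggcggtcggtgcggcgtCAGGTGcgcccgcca
CLDN4 (chr7:73830746-73831045, plus strand): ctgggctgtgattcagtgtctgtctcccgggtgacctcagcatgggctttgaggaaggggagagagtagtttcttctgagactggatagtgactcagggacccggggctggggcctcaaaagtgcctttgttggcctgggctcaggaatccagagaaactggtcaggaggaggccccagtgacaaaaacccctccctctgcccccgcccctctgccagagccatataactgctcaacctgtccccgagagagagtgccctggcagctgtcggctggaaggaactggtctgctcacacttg
CLDN7 held 5 matches, OCLN 2 and CLDN4 0. The search covered 30 windows of 19 of the 32 members, so the motif counts given here do not speak for the rest. Of these windows 10 held an E-box, in 9 genes, against 20.6% of all 35116 windows. The 9 genes were CLDN7, CRB3, DSC2, DSG2, DSP, JUP, OCLN, TJP1 and TJP3. Of these only CLDN7 and OCLN passed 2-fold between YAP-S94A and YAP-WT. DSG2 differed by 1.19-fold there, while DSP and TJP1 were lower in YAP-S94A, by 1.51-fold and 1.14-fold. Whether E-boxes bear on these differences was not tested. The TEAD motif GGAATG, or CATTCC on the other strand, was in 0 of 30 member windows and in 14.0% of all windows. The Grainyhead motif AACCGGTT was in 0 of 30 and in 0.134% of all, and the shorter CCGGTT within it, or in reverse AACCGG, was in 7 of 30 and in 7.23% of all. A match is a run of letters and does not show binding.

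Among the regulators, proteases and polarity genes, the splicing regulator gene ESRP1 separated YAP-WT from the other arrays. Of 6 measured genes in this class, 2 (33.3%) were at least 2-fold higher than vector in YAP-W1W2, 1 (16.7%) in YAP-S94A and 2 (33.3%) in YAP-WT, against 11.4%, 10.3% and 9.11% of all measured genes. Lower were 0, 0 and 1 (16.7%), against 8.4%, 6.53% and 4.95%. The median log2 difference of the 6 genes from YAP-WT was 1.29 in YAP-W1W2 and 0.77 in YAP-S94A, against −0.04 and 0.01 for all measured genes. ESRP1, an RNA-binding protein that sets epithelial splice forms of CTNND1 and other transcripts, read 1446.3 in YAP-W1W2, 1526.1 in YAP-S94A, 287.5 in YAP-WT and 1038.9 in vector. YAP-WT was 3.61-fold below vector, and YAP-W1W2 and YAP-S94A were 5.03-fold and 5.31-fold above YAP-WT. The second probe set gave smaller sizes, 2.31-fold below vector in YAP-WT, and 2.58-fold and 2.78-fold above YAP-WT in YAP-W1W2 and YAP-S94A. The epithelial transcription factor gene GRHL2 lay near the floor, at 86.5 in YAP-W1W2, 82.9 in YAP-S94A, 160.3 in YAP-WT and 80.6 in vector, and was not measured.

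EPCAM, an adhesion protein that binds claudin 7 at the lateral membrane, was higher than vector on every YAP array. It read 3440.4 in YAP-W1W2, 2326.9 in YAP-S94A, 1215.6 in YAP-WT and 578.2 in vector. The folds over vector were 5.95 in YAP-W1W2, 4.02 in YAP-S94A and 2.10 in YAP-WT, the last at a log2 value of 0.91 with median centring. EPCAM rests on 1 probe set, and its order differed from that of CLDN7. Matriptase (ST14), a membrane protease that cleaves EPCAM and activates prostasin, read 2150.7 in YAP-W1W2, 1947.4 in YAP-S94A, 854.7 in YAP-WT and 1245.6 in vector. It was 2.52-fold higher in YAP-W1W2 than in YAP-WT and 2.28-fold higher in YAP-S94A than in YAP-WT. By its second probe set both mutants also passed 2-fold over vector, at 2.36-fold and 2.27-fold. Prostasin (PRSS8), its partner protease, read 1763.5 in YAP-W1W2, 1767.5 in YAP-S94A, 1364.1 in YAP-WT and 1183.8 in vector, a range of 1.49-fold. The matriptase inhibitors SPINT1 and SPINT2 read 1924.5 to 3331.7 and 4673.2 to 6412.6 over the arrays by their brightest probe sets.

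The polarity genes split. PARD3, a scaffold of the Par complex that builds tight junctions, read 1379.3 in YAP-W1W2, 1005.6 in YAP-S94A, 1898.7 in YAP-WT and 835.0 in vector. It was highest in YAP-WT, 2.27-fold above vector by its brightest probe set, 2.28-fold by another and 1.25-fold by the dimmest measured one, in which both mutants lay below vector. CRB3, the epithelial Crumbs protein of the apical membrane, read 920.9 in YAP-W1W2, 591.8 in YAP-S94A, 390.0 in YAP-WT and 448.8 in vector. CRB3 was 2.05-fold higher than vector and 2.36-fold higher than YAP-WT in YAP-W1W2. Its promoter window, shown because it carries as many E-boxes as that of CLDN7, is printed in the same form.
CRB3 (chr19:6464021-6464320, plus strand): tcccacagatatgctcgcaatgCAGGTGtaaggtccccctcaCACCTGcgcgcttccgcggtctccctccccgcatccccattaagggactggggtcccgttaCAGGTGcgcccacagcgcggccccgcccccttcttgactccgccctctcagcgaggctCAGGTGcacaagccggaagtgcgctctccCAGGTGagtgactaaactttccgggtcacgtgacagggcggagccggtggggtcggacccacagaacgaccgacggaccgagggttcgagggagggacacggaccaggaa
It held 5 E-boxes.

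Of 17 listed other polarity genes 15 were measured. Against vector, 1 (6.67%) was at least 2-fold higher in YAP-W1W2, 1 (6.67%) in YAP-S94A and 2 (13.3%) in YAP-WT, while 2 (13.3%), 2 (13.3%) and 0 were lower. These shares were near those of all measured genes, which were 11.4%, 10.3% and 9.11% higher and 8.4%, 6.53% and 4.95% lower. PALS1, the Crumbs-complex scaffold, followed PARD3 in its order of arrays, at 4126.5 in YAP-W1W2, 3076.0 in YAP-S94A, 5810.1 in YAP-WT and 2577.0 in vector. It was 2.25-fold higher than vector in YAP-WT. The PARD3 relative PARD3B read 478.4 in YAP-W1W2, 220.9 in YAP-S94A, 880.1 in YAP-WT and 556.9 in vector, and was 3.98-fold lower in YAP-S94A than in YAP-WT, though 1.71-fold by its other measured probe set. Among the Par6 genes, PARD6A and PARD6B had opposite directions. PARD6A was 2.66-fold, 2.38-fold and 2.10-fold higher than vector in YAP-W1W2, YAP-S94A and YAP-WT. It rests on 1 dim probe set that read 84.8 in vector, near the floor. PARD6B was 2.01-fold and 2.19-fold lower than vector in YAP-W1W2 and YAP-S94A. The brighter PARD6G followed neither, at 396.8 in YAP-W1W2, 824.3 in YAP-S94A, 530.3 in YAP-WT and 714.6 in vector.

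**Figure D5:**
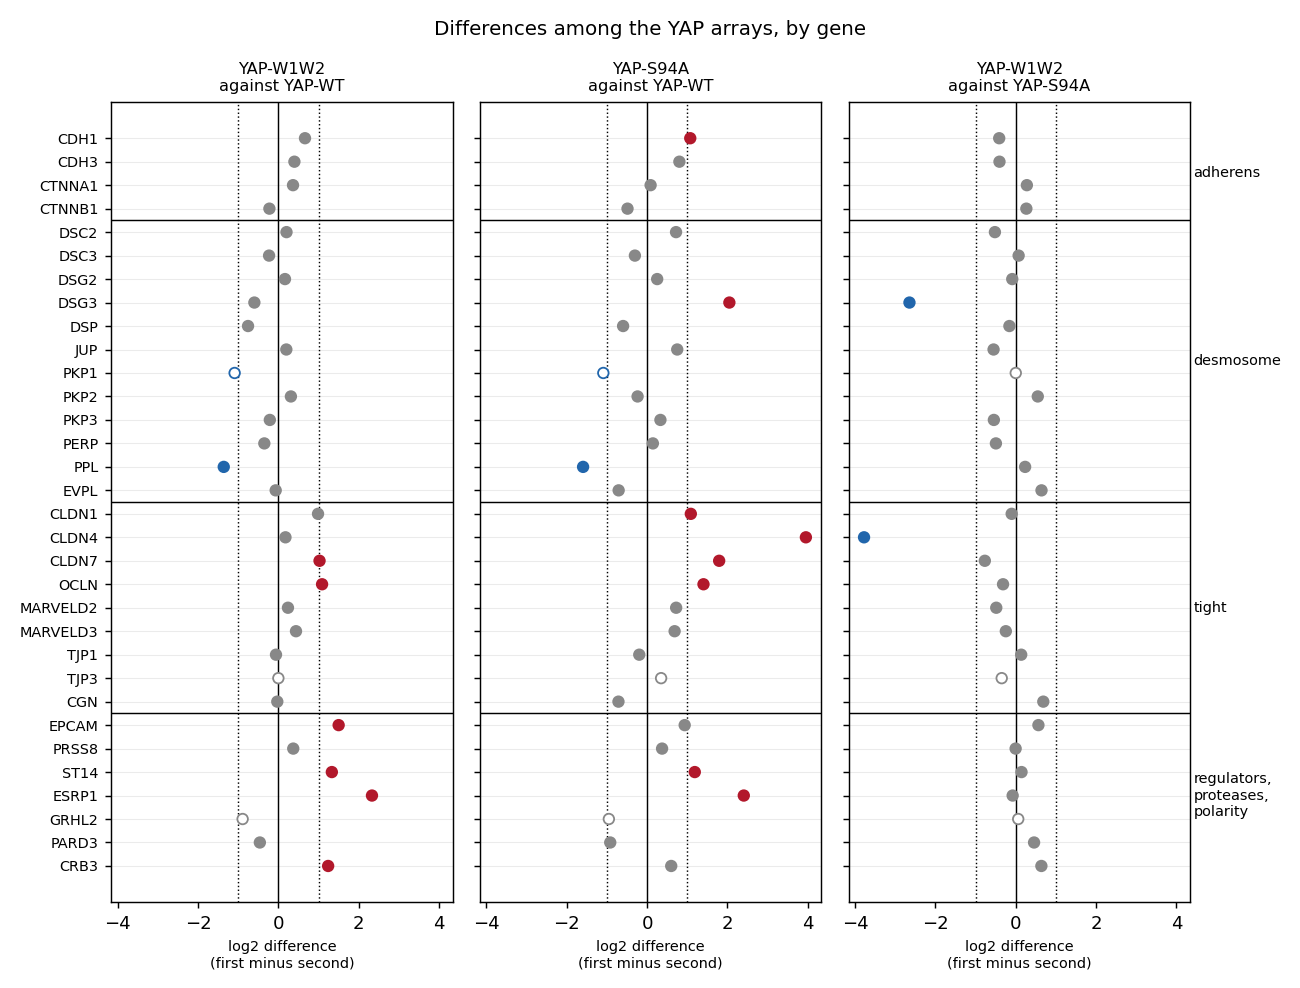
Log2 difference of each gene between YAP arrays (columns: YAP-W1W2 against YAP-WT, YAP-S94A against YAP-WT, YAP-W1W2 against YAP-S94A), coloured as in the plot against vector. Claudins, OCLN and ESRP1 lie to the right in the second column and TJP1 and CGN to the left of 0, PPL lies to the left in the first 2 columns, and the third column has DSG3 and CLDN4 alone past 2-fold, both lower in YAP-W1W2.

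Known repressors of epithelial junction genes were listed apart, and 7 of 9 were measured. Against vector, 0 were at least 2-fold higher in YAP-W1W2, 1 (14.3%) in YAP-S94A and 1 (14.3%) in YAP-WT, against 11.4%, 10.3% and 9.11% of all measured genes. Lower were 3 (42.9%), 3 (42.9%) and 1 (14.3%), against 8.4%, 6.53% and 4.95%. ZEB1, a zinc-finger repressor of CDH1, read 180.1 in YAP-W1W2, 175.4 in YAP-S94A, 381.6 in YAP-WT and 147.6 in vector. It was 2.59-fold higher than vector in YAP-WT, and the mutants stood near vector. These ZEB1 values rest on its only measured probe set. Of the dimmer ones, below the filter, those reading 166.8 and 95.6 in YAP-WT also put that array highest. Another put YAP-W1W2 highest, at 147.5, with 103.3 in YAP-S94A, 89.2 in YAP-WT and 48.1 in vector. The ZEB1 relative ZEB2 read 49.3 in YAP-W1W2, 66.0 in YAP-S94A, 243.0 in YAP-WT and 457.7 in vector, so it was at least 6.28-fold lower than vector in both mutants by this probe set. The second measured ZEB2 probe set read 95.3 in YAP-W1W2, 49.9 in YAP-S94A, 93.0 in YAP-WT and 226.8 in vector. There the difference from vector was 2.38-fold in YAP-W1W2, at least 3.11-fold in YAP-S94A and 2.44-fold in YAP-WT, and YAP-WT did not stand apart from YAP-W1W2. SNAI2, the Slug repressor, read 2334.0 in YAP-W1W2, 4068.1 in YAP-S94A, 4203.4 in YAP-WT and 4618.0 in vector. SNAI1 was above the floor in YAP-W1W2 alone, at 134.8, and was not measured. The E-box factor TCF4 was 6.13-fold lower than vector in YAP-W1W2, 2.71-fold in YAP-S94A and 2.58-fold in YAP-WT. All 6 measured TCF4 probe sets were lower than vector on every YAP array, the smallest difference being 1.24-fold, in YAP-WT. TWIST2 was 2.28-fold lower in YAP-W1W2, but 1.11-fold higher by its other measured probe set. Whether any of these levels bear on the junction genes was not tested.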

How the data were processed

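Total RNA of 4 MCF10A cultures, 1 for each group, was measured on Affymetrix arrays. The authors deposited linear intensities for each probe set, made with GCOS, the Affymetrix operating software, per the submitters' processing notes. The sources used here give no version, scaling target or genome build, and no detection calls were used. Biotin-labelled RNA was made by the standard Affymetrix procedure, per the labels' protocols.

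The 62 control probe sets of 54675 were set apart. Gene names came from the platform annotation: 41091 of the others had 1 symbol, 1801 several and 11721 none, and genes were named only from the first kind; entrez identifiers were matched to RefSeq, which updated 0 member symbols. The 2% trimmed means of the arrays, 458.4 to 503.3, had a ratio of 1.10, within the 10% allowed, so values were used as deposited. Intensities were floored at 72.9, their 40th percentile, before log2 was taken. Each gene had its brightest probe set by mean over the 4 arrays. Measured genes had a mean of at least 113.6. Python 3.11.15, numpy 2.4.6 and pandas 2.3.3 were used, and the steps were tested on simulated data. Any member could be named, as could ZEB1, ZEB2, SNAI1, SNAI2, CDH2 and the markers. Of each list of other genes, up to 4 measured genes with the widest range and a 2-fold difference could be. SPINT1, SPINT2, DSC1, DSG1, DSG4 and PARD6G were named after their values were seen. Promoters came from RefSeq, GRCh38.p14. The number of arrays, 1 per group, limits the precision; no test, interval or p-value could be had from the spread of replicates. Members and lists were chosen with earlier results of these data known. Alternatives were median centring, quantile normalization, other floors, other probe sets, no filter and other fold limits.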

Additional observations from a re-analysis of the deposited data

How the results depend on the processing

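No paired analysis was possible because each group has 1 array. Of 24 class medians under 7 alternatives (168 values), 167 moved by less than 1.5-fold. The exception was the desmosome median in YAP-W1W2 against vector, −1.19 (log2) when _s_at and _x_at probe sets were left out. That setting drops JUP, PKP2 and PKP3 from the class and takes a dimmer PERP probe set. Signs of class medians differed in 11 of the 168 values, 10 of them from medians nearer 0 than 0.3; the other was the adherens junction median of YAP-S94A against YAP-WT, −0.08 under the same setting, which leaves out CDH1. Of 271 values of the 40 single member differences past 2-fold, 0 reversed, and 9 fell under 2-fold, in CLDN4, EPCAM, PARD3, CGN, ST14 and OCLN. With the mean over probe sets, which takes in a CLDN4 probe set below the floor, CLDN4 differed from vector by −0.83 in YAP-W1W2, 1.06 in YAP-S94A and −0.92 in YAP-WT.

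Counts of members depended mainly on the limit. At 1.5-fold, 8 were higher in YAP-W1W2, 8 higher and 5 lower in YAP-S94A and 5 higher in YAP-WT than in vector; 15 were higher and 5 lower in YAP-S94A than in YAP-WT, 3 lower in YAP-W1W2 than in YAP-WT and 3 higher in YAP-W1W2 than in YAP-S94A. Of all measured genes, 24.0% were higher than vector in YAP-W1W2, 23.6% higher and 14.4% lower in YAP-S94A and 20.9% higher in YAP-WT; 13.9% were higher and 15.1% lower in YAP-S94A than in YAP-WT, 15.2% lower in YAP-W1W2 than in YAP-WT and 11.9% higher in YAP-W1W2 than in YAP-S94A. The 15 members were 51.7% of 29, and the counts just given against vector 17.2% to 27.6%. At 3-fold, 3 were lower than vector in YAP-W1W2, 1 lower in YAP-S94A and 1 higher in YAP-WT; 4 were higher in YAP-S94A and 1 in YAP-W1W2 than in YAP-WT, and 0 lower in YAP-W1W2. The shares of all measured genes were 3.38%, 2.32%, 3.18%, 1.37%, 0.988% and 1.35% in the same order. Without _s_at and _x_at probe sets, which leaves out 7 members, CGN, EPCAM and PARD3 among them, the members higher than vector were 1, 1 and 0 in YAP-W1W2, YAP-S94A and YAP-WT, and 4 members were lowest in vector. Without the filter on dim genes, 2 members were lower than YAP-WT in each mutant, and 2 in YAP-S94A with the mean over probe sets. The count of members lowest in YAP-WT lay between 12 and 14 under the same 7 alternatives, which were applied to it after the data were seen.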

Other observations

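Among transcription factors known to promote epithelial genes, EHF was low on every YAP array and ELF3 was low in YAP-W1W2 and YAP-WT. Of 9 measured genes in a list of 11 other regulators and protease inhibitors, 3 (33.3%) were at least 2-fold lower than vector in YAP-W1W2, 1 (11.1%) in YAP-S94A and 3 (33.3%) in YAP-WT, against 8.4%, 6.53% and 4.95% of all measured genes. On each array 0 were higher, against 11.4%, 10.3% and 9.11%. The ETS factor EHF read 95.6 in YAP-W1W2, 171.9 in YAP-S94A, 235.9 in YAP-WT and 2128.4 in vector, so every YAP array was low, by 22.3-fold, 12.4-fold and 9.02-fold. Its 2 other measured probe sets put all YAP arrays below the floor. Its relative ELF3 read 307.7 in YAP-W1W2, 703.4 in YAP-S94A, 185.7 in YAP-WT and 704.3 in vector. By this probe set ELF3 in YAP-S94A was close to vector and 3.79-fold higher than in YAP-WT. The other measured ELF3 probe set read 149.7 in YAP-S94A and 314.5 in vector, 2.10-fold lower, and was below the floor in YAP-W1W2 and YAP-WT. The Grainyhead-like factor GRHL3 read 266.7 in YAP-W1W2, 710.1 in YAP-S94A, 348.4 in YAP-WT and 645.2 in vector, and was 2.42-fold lower than vector in YAP-W1W2. OVOL1, a repressor of mesenchymal genes, read 453.5 in YAP-W1W2, 520.5 in YAP-S94A, 272.0 in YAP-WT and 622.4 in vector. OVOL1 was 2.29-fold lower than vector in YAP-WT. It was 1.91-fold higher in YAP-S94A than in YAP-WT, under the 2-fold limit.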
